A study of Drosophila melanogaster with 3 samples.

Results

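Genes of the Dpp pathway, 10 in number, were described by where the ind-eGFP protein was found on them: the ligand gene dpp, the extracellular inhibitor gene sog, the receptor genes tkv, sax and put, the Smad genes Mad and Med, the inhibitory Smad gene Dad, the repressor gene brk and the zinc-finger cofactor gene shn. They were chosen by name for their roles in the pathway, with earlier results of these data known. They are 10 of 13968 protein-coding genes in the annotation. Binding was mapped by chromatin immunoprecipitation and sequencing (ChIP-seq) in Drosophila melanogaster whole embryos of pooled sex, aged 0 to 16 hours, in 3 biological replicates from separate biosamples that form 1 group. The flies carried a transgene, stably expressed per the labels, for the ind protein with GFP at its C-terminal end, and the immunoprecipitation used an antibody against GFP, although 1 label field gives the antibody as ind. The sources used here do not name the promoter that drives the transgene. The labels describe no second genotype, age or treatment, so nothing was compared between groups and no test was run. In whole embryos of mixed age, many bound cells and strong binding in a few cells cannot be told apart.

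Dpp is a secreted ligand of the BMP family that patterns the dorsal side of the Drosophila embryo in a graded way. It binds the type I receptors Tkv and Sax together with the type II receptor Put, which phosphorylate Mad, and Mad then enters the nucleus with its partner Med to act on target genes. Outside the cell Sog binds Dpp and limits where it signals, and inside the cell Dad, itself switched on by the pathway, holds it back. In the nucleus Brk represses Dpp target genes, and Mad and Med together with Shn in turn repress brk. The homeodomain protein Ind works in the intermediate column of the neural primordium, whose dorsal edge faces the Dpp gradient.

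The authors' optimal list held 5809 peaks in the dm6 build, chosen for keeping their rank in the replicates. Their relaxed lists, which also take in background, held 24244 peaks for the pooled reads and 30000, 27570 and 25725 for replicates 1, 2 and 3. The lists carry no read depth, which is therefore unknown. A peak was placed by its summit, and a summit counted for a gene when it lay in the gene body or up to 2000 bp upstream. Strength is given as relative signal, the authors' own signal value over its median in that list, so that 1 is a typical optimal peak. In a replicate it is the signal of the nearest peak within 200 bp divided by the median over all peaks matched to the optimal list. From each replicate the 5809 strongest peaks were taken, the length of the optimal list, and an optimal summit is called found in that replicate if one of their summits lies within 200 bp. The ind gene had 0 optimal summits in the same kind of window.

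The sequences under the strongest peaks show what kind of DNA carried the signal. Each window holds the summit and 100 bp on each side, read on the plus strand of dm6, 5′ to 3′, taken from the RefSeq genome of that build. Capitals mark matches to any of 10 short motifs sought on both strands, which include the homeodomain cores TAATTA and CAATTA, the Zelda site CAGGTA, the Smad box GTCTGNC and the run AAAAAA. Mad, sog and tkv are transcribed from the minus strand, and the other genes shown from the plus strand. The first lines are the strongest peaks of 6 genes in falling order of relative signal, all in introns (for brk, those of the gene around it).
Mad, chr2L:3153309-3153509, plus strand: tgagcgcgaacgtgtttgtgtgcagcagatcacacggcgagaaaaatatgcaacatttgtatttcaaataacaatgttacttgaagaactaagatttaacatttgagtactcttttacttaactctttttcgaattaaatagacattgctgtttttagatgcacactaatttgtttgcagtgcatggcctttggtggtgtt
Dad, chr3R:17065030-17065230, plus strand: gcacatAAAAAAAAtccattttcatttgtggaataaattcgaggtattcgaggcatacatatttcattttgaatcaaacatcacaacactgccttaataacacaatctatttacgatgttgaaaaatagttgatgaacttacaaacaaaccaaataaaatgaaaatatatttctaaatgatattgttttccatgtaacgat
sog, chrX:15619415-15619615, plus strand: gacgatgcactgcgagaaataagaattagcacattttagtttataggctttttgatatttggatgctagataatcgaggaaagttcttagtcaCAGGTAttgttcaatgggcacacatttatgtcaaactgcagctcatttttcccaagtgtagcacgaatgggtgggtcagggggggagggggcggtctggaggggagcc
brk, chrX:7307053-7307253, plus strand: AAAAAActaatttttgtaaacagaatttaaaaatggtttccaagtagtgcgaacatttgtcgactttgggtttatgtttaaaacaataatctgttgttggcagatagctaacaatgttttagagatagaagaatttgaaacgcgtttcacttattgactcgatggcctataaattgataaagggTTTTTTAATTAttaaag
dpp, chr2L:2433533-2433733, plus strand: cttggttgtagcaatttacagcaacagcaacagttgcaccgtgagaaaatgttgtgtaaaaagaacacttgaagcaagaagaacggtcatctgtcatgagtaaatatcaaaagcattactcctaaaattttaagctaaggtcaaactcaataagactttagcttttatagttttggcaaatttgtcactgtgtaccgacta
tkv, chr2L:5225670-5225870, plus strand: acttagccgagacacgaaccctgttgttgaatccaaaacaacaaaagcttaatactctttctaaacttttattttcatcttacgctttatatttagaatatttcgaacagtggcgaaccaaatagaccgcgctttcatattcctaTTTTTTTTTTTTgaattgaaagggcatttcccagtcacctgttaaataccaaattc

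In the sog window CAGGTA begins 7 bp before the summit. In the brk window the only homeodomain core, TAATTA, begins 89 bp after the summit and overlaps a run of T, which is AAAAAA on the other strand. The Mad and dpp windows hold 0 matches to the 10 motifs, and the Dad and tkv windows hold runs of A or T alone. The strongest shn peak, not printed, holds a match to the homeodomain core CAATTA that begins 68 bp before its summit. A pair of weaker summits, chosen after their values were seen, shows CAATTA in other positions. In the peak upstream of dpp, CAGGTA begins 57 bp before the summit and TAATTG, which is CAATTA on the other strand, begins 56 bp after it. In the sog peak 10385 bp from the first sog start, CAATTA begins 2 bp before the summit.
dpp, chr2L:2426554-2426754, plus strand: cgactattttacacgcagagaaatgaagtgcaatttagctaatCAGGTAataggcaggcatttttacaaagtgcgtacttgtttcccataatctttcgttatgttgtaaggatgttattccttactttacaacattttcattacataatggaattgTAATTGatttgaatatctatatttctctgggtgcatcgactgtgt
sog, chrX:15622949-15623149, plus strand: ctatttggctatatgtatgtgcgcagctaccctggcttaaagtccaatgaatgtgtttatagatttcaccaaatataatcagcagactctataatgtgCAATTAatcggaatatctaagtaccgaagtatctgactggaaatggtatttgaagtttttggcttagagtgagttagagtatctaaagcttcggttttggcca

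Peaks of ind-eGFP lay at 8 of the 10 genes, and Med and sax had 0. The peaks of the receptor genes tkv and put were all below the list's median signal, and none was found in all 3 replicates. Across all protein-coding genes 34.2% had an optimal summit, and 61.1% of those at least 10 kb long did. All 6 members of at least 10 kb had one, and so did brk and put among the 4 shorter members, where the share over all shorter genes was 29.8%. Counted from each replicate's strongest summits, 8, 7 and 7 members had one in replicates 1, 2 and 3, where 34.9%, 33% and 34.6% of protein-coding genes did. The gene missing from replicates 2 and 3 was put.

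The 8 genes together held 30 optimal summits. The gene shn had 16, sog and Dad 3 each, dpp, brk and tkv 2 each, and Mad and put 1 each. Replicates 1, 2 and 3 placed 31, 26 and 29 of their strongest summits at these genes, a mean of 28.7 ± 2.52 (SD, n = 3). The windows held 12.5 optimal summits per 100 kb, and 7.79 without shn, beside 6.01 over all protein-coding gene windows and 4.28 over those of genes of at least 10 kb. Much of the total therefore came from shn.

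**Figure D1:**
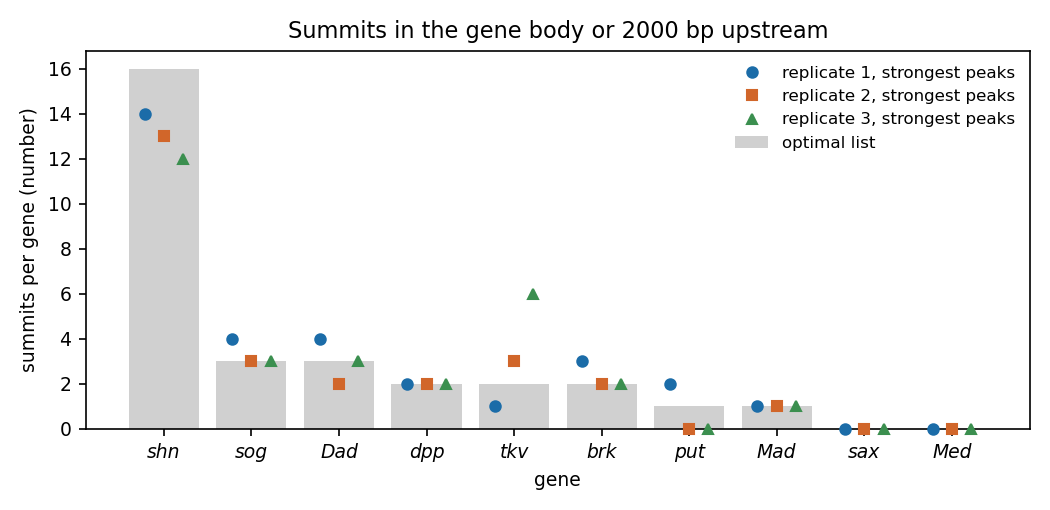
Number of summits in the body or 2000 bp upstream of each of the 10 genes: grey bars for the optimal list, coloured points for the 5809 strongest peaks of each replicate. The gene shn stands at 16 in the optimal list and at 12 to 14 in the replicates, while tkv ranges from 1 to 6 between replicates and sax and Med stay at 0.

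Introns carried 27 of the 30 summits (90%), where introns held 37% of the whole optimal list. Of these intron summits 14 lay in shn, and the 2 at brk lay upstream of it, inside the bodies of CG1677 and lncRNA:CR44357. Of the 10 genes 6 are at least 10 kb long, and the intron share at long genes alone was not computed. Promoters, taken as 500 bp on each side of any annotated start, held 2 (6.67%), where they held 48.1% of the list. Both were promoters of shn, and the remaining summit was intergenic, upstream of dpp. Coding sequence and UTRs held 0. By position, 27 summits lay in a gene body and 3 upstream, 1 at dpp and 2 at brk.

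All 3 replicates found 17 of the 30 summits (56.7%), beside 70.1% of the whole list. Split by strength, all 13 summits above the list's median signal were found in all 3 replicates (97.5% of the list's peaks above its median were). Of the 17 at or below the median 4 were (42.7% of such peaks in the list). A further 9 summits were found in 2 replicates, 3 in 1 and 1 in 0. Of the 14 summits outside shn 10 were found in all 3 replicates, and of the 16 at shn 7.

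The ligand gene dpp (FBgn0000490, 2L from 2428372 to 2459823, plus strand, 4 annotated starts) carried a peak on each side of its first start. The stronger one lay in an intron 5261 bp after that start, with relative signals of 1.89, 1.92 and 1.70 in replicates 1, 2 and 3 (1.83 ± 0.120, SD, n = 3) and 1.86 in the optimal list. The replicates stood close together for this peak. The other lay in intergenic sequence 1718 bp upstream, 1227 bp from the start of lncRNA:CR44912, at 0.803, 1.44 and 1.30 (1.18 ± 0.336, SD, n = 3). There replicate 1 fell below the list's typical peak and the other two above it. Both peaks were found in all 3 replicates. No summit lay near the 3 later dpp starts, at 21821 to 26365 bp. Of 348 other genes of like window length (up to 25% longer, or shorter by the same factor), 131 had at least as many summits.

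The gene sog (FBgn0003463, X from 15603283 to 15633434, minus strand), whose secreted product binds Dpp and is made in the ventral neuroectoderm, carried 3 intron peaks spaced along its middle. The strongest, 13919 bp from the first start and 7025 bp from the nearest sog start, had relative signals of 2.00, 2.80 and 2.84 in the replicates (2.55 ± 0.474, SD, n = 3). Replicate 1 was the lowest there. The peak at 10385 bp stood at 1.34, 1.80 and 1.99 (1.71 ± 0.335, SD, n = 3), again lowest in replicate 1. The peak at 17822 bp was weaker and even, at 0.838, 0.738 and 0.930 (0.835 ± 0.0963, SD, n = 3). All 3 peaks were found in all 3 replicates, and 91 of 367 genes of like window length had at least 3 summits.

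Receptor genes carried weak peaks or none. The gene tkv (FBgn0003716, 2L from 5219000 to 5271384, minus strand), for a type I receptor, had 2 intron peaks in a 52385 bp body, 3.68 per 100 kb. The peak at 45614 bp, nearest to the start of the troponin C gene TpnC25D, had relative signals of 0.480, 0.731 and 0.600 (0.603 ± 0.125, SD, n = 3). The peak at 9959 bp stood at 0.760, 0.480 and 0.605 (0.615 ± 0.140, SD, n = 3). All 6 values lay below a typical optimal peak, the peaks' means differed by less than their spread, and each peak was found in 2 of the 3 replicates, replicate 1 missing the first and replicate 2 the second. The gene put (FBgn0003169, 3R from 14619030 to 14625703, minus strand), for the type II receptor, had 1 intron peak 1473 bp after its start, which also falls in the upstream window of the histone gene His4r. Its relative signals were 0.734, 0.454 and 0.543 (0.577 ± 0.143, SD, n = 3), and it was found in replicate 1 only.

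The gene sax (FBgn0003317, 2R from 7806484 to 7810067, plus strand), for the other type I receptor, had 0 optimal summits and 0 pooled relaxed peaks. In the relaxed lists it had 2 peaks in replicate 1, the better at rank 10421 of 30000, 2 in replicate 2, the better at rank 24529 of 27570, and 0 in replicate 3. The nearest optimal summit lay 2294 bp past the end of its window, at the promoter of puml, with a relative signal of 2.11.

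Of the Smad genes, Mad had a strong peak and Med had none. Mad (FBgn0011648, 2L from 3146056 to 3159643, minus strand), the Smad that the receptors phosphorylate, carried 1 peak in an intron, 656 bp upstream of its second annotated start. Its relative signals were 2.96, 4.14 and 3.43 (3.51 ± 0.592, SD, n = 3), and with 3.61 in the optimal list it ranked 331 of 5809. All 3 replicates placed it well above a typical optimal peak. Med (FBgn0288966, 3R from 31611046 to 31615375, plus strand), the shared partner of Mad, had 0 optimal summits. Its 4 pooled relaxed peaks began at rank 14723 of 24244, with a −log10 q-value of 0.454 where all optimal peaks shared 4.08. The best ranks in replicates 1, 2 and 3 were 7135, 12710 and 11911. Just outside, 795 bp past the end of the gene, an optimal summit with a relative signal of 7.38 stood at the promoter of Mnat9, so a strong peak lay close to Med but not in its window.

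The inhibitory Smad gene Dad (FBgn0020493, 3R from 17054007 to 17070408, plus strand) carried 3 intron peaks, of which the most distant from its starts was the strongest. That peak, 11123 bp from the first start, had relative signals of 2.96, 3.23 and 3.73 (3.30 ± 0.389, SD, n = 3), and the nearest start of any gene, 7545 bp away, was that of Ns1, a nucleostemin gene. The peak at 6475 bp stood at 0.853, 0.913 and 0.999 (0.922 ± 0.0735, SD, n = 3). The peak at 5708 bp stood at 0.710, 0.516 and 0.504 (0.577 ± 0.116, SD, n = 3) and was found in replicate 1 only, whereas the others were found in all 3. Of 613 genes of like window length, 94 had at least 3 summits.

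The repressor gene brk (FBgn0024250, X from 7307939 to 7311132, plus strand, 1 annotated start) is a short gene. Both of its summits also lay inside the bodies of CG1677 and lncRNA:CR44357, outside coding sequence and UTRs, and were therefore classed as intron. Whether they lay in an intron or an exon of the non-coding gene was not determined. The stronger, 786 bp upstream of the brk start, had relative signals of 1.87, 2.60 and 2.17 (2.21 ± 0.365, SD, n = 3). The other, 582 bp upstream, stood at 1.05, 1.12 and 1.31 (1.16 ± 0.134, SD, n = 3), and 0.947 in the optimal list. Every replicate placed the first above the second. The summits are 204 bp apart and their peak intervals overlap, so they are neighbouring summits of 1 region. Both were found in all 3 replicates. Per length brk had 38.5 summits per 100 kb, the densest of the 10 windows, and 237 of 3189 genes of like window length had at least 2 summits. The gene CG1677, with a body of 124709 bp, held 19 optimal summits, including those at brk.

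The summits closest to the 2000 bp limit of the windows were at dpp and brk. The dpp summit 1718 bp upstream lay just inside. A further brk summit, 2016 bp upstream with a relative signal of 0.947, lay just outside by 16 bp.

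**Figure D2:**
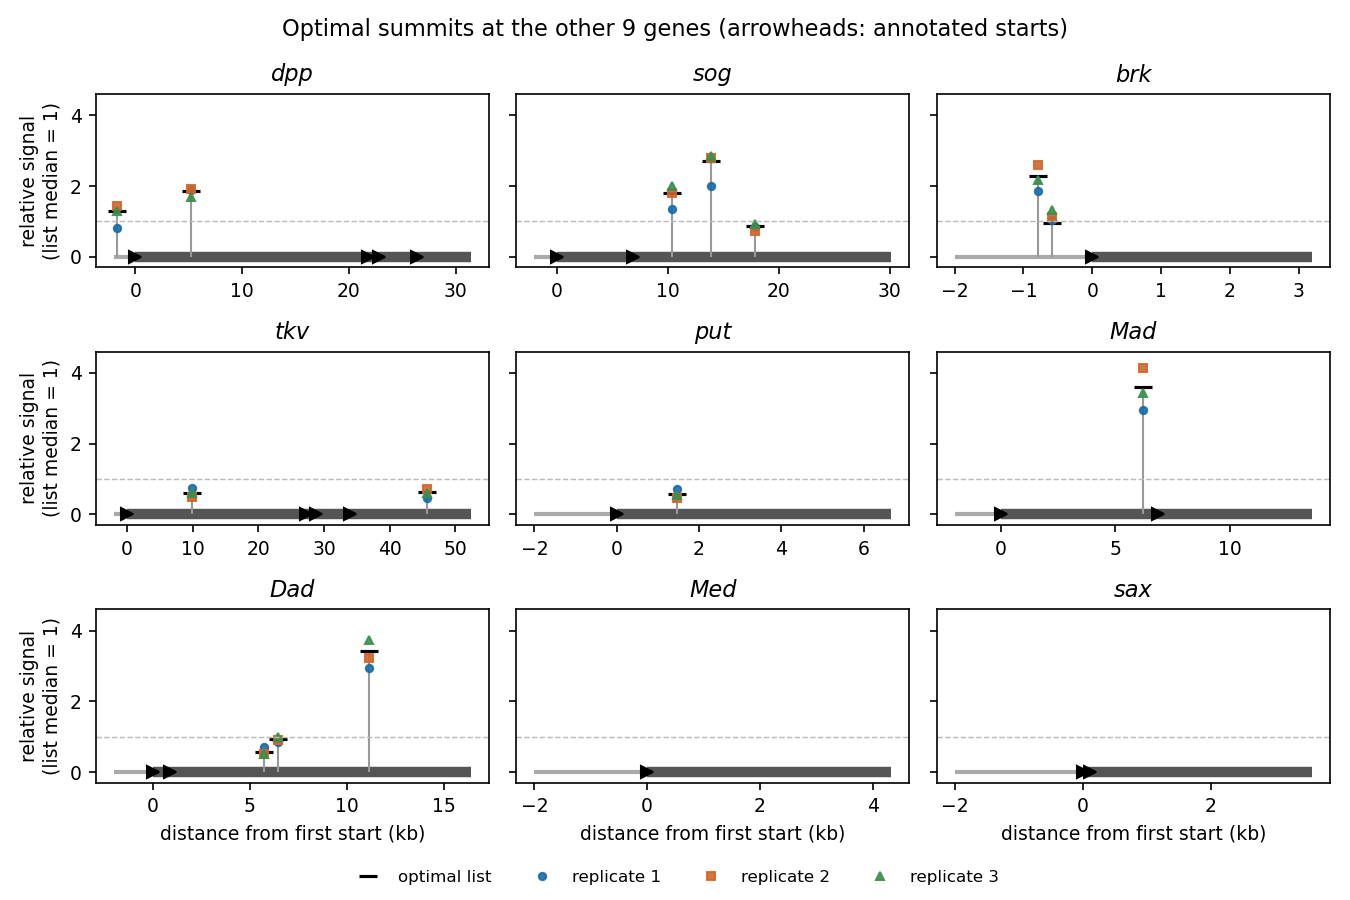
Optimal summits along the 9 genes other than shn, by distance in kb from the first start in the direction of transcription (dark bar gene body, light bar upstream window, arrowheads annotated starts), with relative signal in the optimal list (dash) and in each replicate (points). The strong peaks at Mad, Dad, sog and brk stand above the dashed line of a typical optimal peak in all 3 replicates, the tkv and put peaks stand below it, and Med and sax have none.

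The gene shn (FBgn0003396, 2R from 11159086 to 11217394, plus strand) encodes a large zinc-finger protein that Mad and Med recruit to repress brk. Its 16 optimal summits placed it at rank 3 by number among all 13968 protein-coding genes, after kirre with 22 and CG1677 with 19, both of which are longer (394149 and 124709 bp, against 58309 bp for shn). In replicates 1, 2 and 3 shn had 14, 13 and 12 of the strongest summits. Of 198 other genes of like window length, 142 (71.7%) had a summit, with a median of 2 and at most 13, and 0 had 16 or more. Per length shn had 26.5 summits per 100 kb.

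The shn summits filled the middle of the gene and left both ends free. They ran from 14504 to 48154 bp after the first start, a stretch of 33650 bp, with gaps of 550 to 6080 bp between neighbours (median 1894 bp). The gene has 5 annotated starts, at 0, 14717, 24138, 39190 and 45543 bp, so the stretch begins at the second start and ends after the fifth. The 14 summits outside promoters all lay in introns.

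Most shn peaks were weak and a few were strong. Of the 16, 6 lay above the list's median signal and 10 below it, with a median relative signal of 0.705. The strongest, 25479 bp along and 1341 bp after the third start, had relative signals of 2.58, 3.10 and 3.43 in replicates 1, 2 and 3 (3.04 ± 0.425, SD, n = 3). In the optimal list it stood at 3.18, rank 430 of 5809. A group of 4 followed before the fourth start, and the last of these, at 38520 bp, was weak (0.293, 0.896 and 0.879). The first of the group, at 35806 bp, stood at 2.28, 2.18 and 2.53 (2.33 ± 0.179, SD, n = 3).

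The next, at 36761 bp, stood at 1.84, 1.41 and 1.52 (1.59 ± 0.226, SD, n = 3), and that at 37970 bp at 1.66, 1.55 and 1.89 (1.70 ± 0.175, SD, n = 3). The means of these neighbours differed by less than their spread. The fifth by signal in the optimal list, at 20181 bp, stood at 1.43, 1.42 and 1.69 (1.51 ± 0.156, SD, n = 3). The sixth, at 48154 bp, stood at 1.69, 1.69 and 1.248 and had the higher mean of this pair (1.54 ± 0.254, SD, n = 3), by less than the spread. All of these 6 were found in all 3 replicates.

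**Figure D3:**
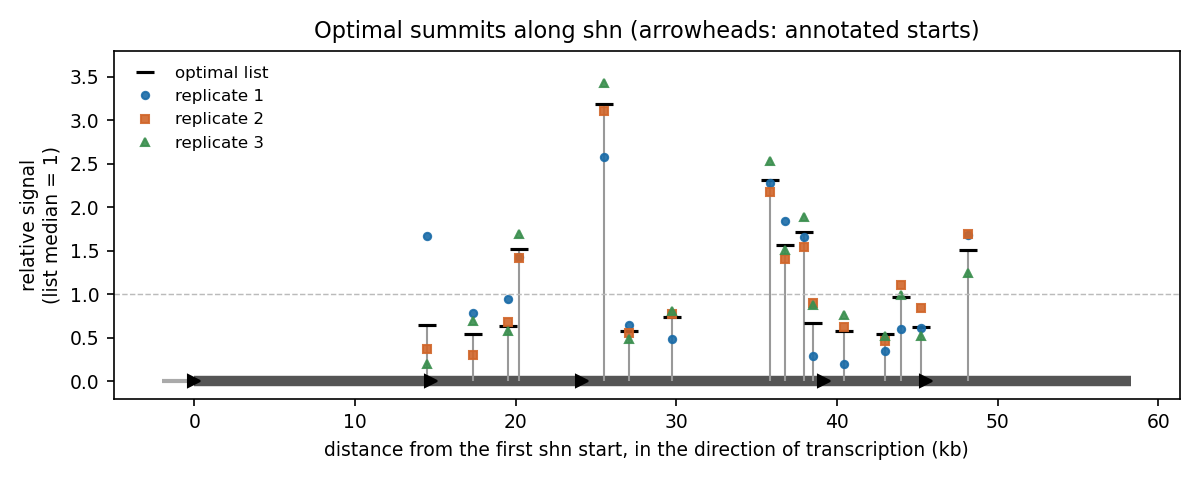
The 16 optimal summits along shn, by distance in kb from the first shn start (arrowheads mark the 5 annotated starts), with relative signal in the optimal list (dash) and in replicates 1 to 3 (points); the dashed line at 1 is a typical optimal peak. Summits run from 14504 to 48154 bp, and 6 of the 16 rise above the line.

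At some of the weak shn peaks the replicates stood far apart. The promoter summit 213 bp before the second start had relative signals of 1.67, 0.368 and 0.205, so that replicate 1 alone stood above a typical peak. It ranked 1333 in replicate 1, 8809 in replicate 2 and 17739 in replicate 3, and it also falls in the upstream window of CG13229. The other promoter summit, 349 bp before the fifth start, stood at 0.610, 0.848 and 0.520 and was found in replicates 1 and 2. The summit at 42997 bp was found in 0 replicates, with ranks of 11887, 6774 and 6148, all beyond the 5809 strongest. Replicate 1 in turn had 3 summits in shn among its 5809 strongest with no optimal summit within 200 bp, at relative signals of 0.924, 0.639 and 0.627, and replicates 2 and 3 had 0.

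By the number and strength of their summits, 8 values in all over the optimal list and the 3 replicates, the genes nearest to shn among the 198 of like window length were mam, rdx and Hr4. Their Euclidean distances from shn were 0.890, 0.897 and 1.253 on the log2 scale, where the median gene stood at 5.73. The gene mam, which encodes the Notch coactivator Mastermind, had 11 optimal summits and a strongest relative signal of 3.62. The gene rdx, for an adaptor that targets the Hedgehog effector Ci for degradation, had 12 and 4.28, and Hr4, for a nuclear receptor, had 11 and 4.67.

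Ordered by the mean over replicates of its strongest peak, Mad came first, followed by Dad, shn, sog, brk, dpp, tkv and put, with a median of 2.38 over the 8 genes. The means of Mad and Dad, of Dad and shn, of sog and brk, and of tkv and put differed by less than the larger of their SDs. Those of shn and sog, and of brk and dpp, differed by slightly more than the larger of their SDs. Mad and Dad exchanged places in replicate 3, brk and dpp in replicate 1, and tkv and put in replicate 1. Within every replicate Dad stood above shn, shn above sog, and sog above brk, so these orders held although some means lay within the spread. The break in the order lay between dpp and tkv: every replicate value of the strongest peak of the first 6 genes was 1.70 or higher, and no replicate value of any optimal peak of tkv or put was above 0.760. The weaker tkv peak of the optimal list had the higher mean over replicates (0.615 against 0.603), a difference within the spread.

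**Figure D4:**
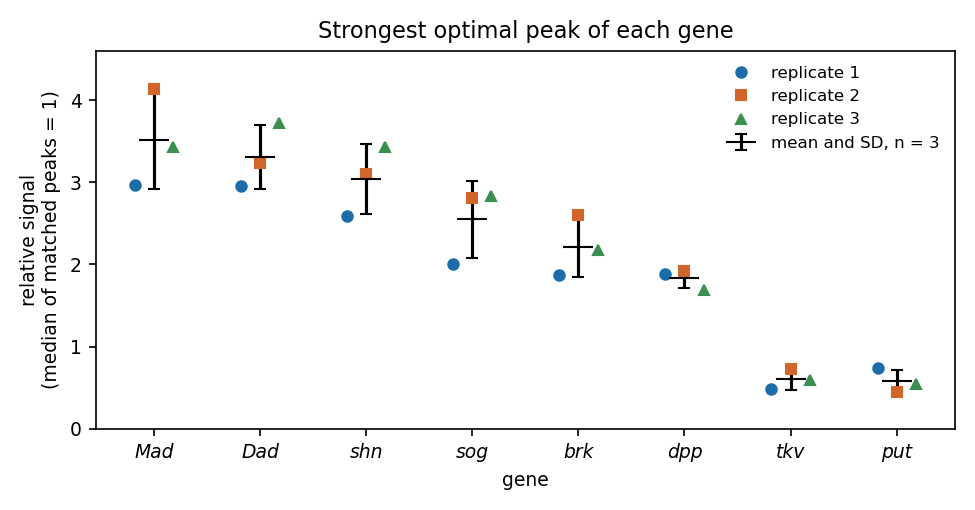
Relative signal of the strongest optimal peak at each of the 8 genes that have one, as the value in each replicate (points) with the mean and SD over 3 replicates (bars). The first 6 genes, from Mad at 3.51 to dpp at 1.83, lie above 1 in every replicate, and tkv at 0.603 and put at 0.577 lie below 1 in every replicate.

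Motifs were counted within 100 bp of each of the 30 summits, on both strands, and set beside the share of all 5809 optimal summits that hold them. The homeodomain core TAATTA lay at 7 summits (23.3%, beside 18.1% of all), and its variant CAATTA lay at 6 of the 30 (20% beside 19.6%). The site of the early embryonic activator Zelda, CAGGTA, lay at 4 (13.3% beside 4.23%). These were the upstream dpp summit, the strongest sog summit and 2 weak shn summits. The Smad box with its flank, GTCTGNC, lay at 1 summit, in shn (3.33% beside 4.42%). The run AAAAAA lay at 11 (36.7% beside 48.5%), although adenine and thymine made up 66.9% of the members' windows and 65.0% of all. The remaining motifs lay at 0 of the 30. Among all summits the GAGA factor repeat GAGAGA was held by 9.57%, the DREF element TATCGATA by 3.75% and the E-box CACGTG by 1.84%. The Brinker-type letters GGCGCC were held by 2.82%, and the Mad-type letters, spelled as GCCGNCG, by 2.91%. These shares rest on few peaks, 16 of them in 1 gene, and a match says nothing about whether a factor was bound there.

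The rest of the pathway was read from 5 lists of 49 further genes. Of these 22 had an optimal summit (44.9%, beside 34.2% of all protein-coding genes), with 63 summits in all. The replicates gave 23, 24 and 21 genes. Of their 23 genes of at least 10 kb, 14 had one, close to the 61.1% of long genes in general. These shares of 34.2% and 61.1% also stand beside the counts of each list, which are small. Of 6 other ligand genes only gbb, for the BMP ligand Glass bottom boat, had a peak. It was very strong, with relative signals of 8.08, 12.7 and 13.2 (11.3 ± 2.83, SD, n = 3), and stood 1164 bp upstream of gbb at the promoter of asRNA:CR45928.

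Both other receptor genes had peaks, the type II receptor gene wit at 3.01 and the type I receptor gene babo at 1.67. The peak of wit lay nearest to the start of CG32259 and that of babo at the promoter of CG33199. Extracellular modulators had peaks at 6 of 12 genes, and at 5 of the 7 of at least 10 kb. These were led by magu (3.72), the glypican genes dlp (2.44) and dally (1.22), and cv-2 (1.58), whose product binds BMP ligands. The genes tsg and tld, whose products act with Sog in the early embryo, had 0. Cytoplasmic and nuclear factors had peaks at 5 of 7, and at 3 of the 4 of at least 10 kb. The strongest were at the corepressor gene gro (5.95), the Ski-type gene Snoo (2.38), the activin-branch Smad gene Smox (2.15) and the coactivator gene nej (2.11). The peaks of Smox and nej lay at promoters of the neighbouring genes CG17982 and lncRNA:CR42657.

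Known Dpp targets had peaks at 8 of 22 genes (36.4%), a share near that of all genes. Of the 11 targets of at least 10 kb, 5 had one, beside 61.1% of long genes in general. The gene ush, for a cofactor of GATA factors, held 12 summits and the strongest peak of the list (19.8), which lay nearest to the start of cbt. It was followed by Ance (3.30, at the promoter of Smg5), the heart gene tin (2.08, at its own promoter) and the homeobox gene hth (2.03, in an intron). The targets zen, zen2, Doc1, Doc2, Doc3, pnr, tup and rho were among those with 0 optimal summits. Among the strongest summits of the replicates, pnr and tup had 1 each in replicate 1 and Doc1 and rho 1 each in replicate 2, and the others had 0.

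**Figure D5:**
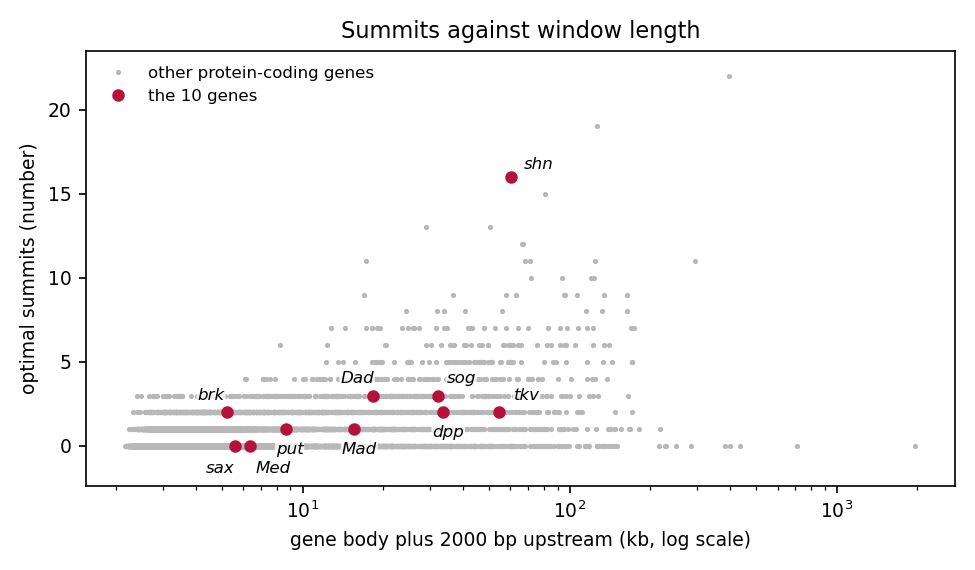
Number of optimal summits of every protein-coding gene (grey) and of the 10 genes (red) against the length of the gene body plus 2000 bp upstream (kb, log scale). The gene shn, at 16, stands above every gene of like length, and the other 9 lie among the grey points at 0 to 3.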

How the data were processed

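ChIP-seq of ind-eGFP was measured in 3 biological replicates. Per the notes deposited beside the lists, the authors made 1 relaxed list per replicate from its alignment and 1 control, a pooled list, and from these an optimal list with the irreproducible discovery rate (IDR), which scores how peaks keep their rank. Control reads were not analysed here. Aligner and peak caller, not given in the sources used here, could change widths and summits. Per the labels, chromatin was sonicated to a size range of 200 to 800. The signal of each peak is the authors' own, on a scale they do not state, and served only to describe and rank peaks within a list. The deposited q-values are on the −log10 scale.

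Summit offsets count from 1. Genes came from Ensembl release 115 (BDGP6), and sequence from the RefSeq dm6 assembly, read by Python 3.11.15 with numpy 2.4.6 and pandas 2.3.3. Summits were classed in the order promoter, 5' UTR, CDS, 3' UTR, intron, intergenic. Intron meant any other position in a gene body, so exons of non-coding genes were counted as introns. Counting was tested on simulated data. The members, lists and motifs were chosen with earlier results of these data known. Named were all 10 genes, every summit of a gene with 5 or fewer, the 5 strongest otherwise, up to 4 genes per list and the 3 most like shn; others were named after their values were seen. Alternatives changed the gene window, the list, the matching distance, the promoter width, the scaling and the replicates used.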

Additional observations from a re-analysis of the deposited data

How the results depend on the processing

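Of the summary counts, the number of genes with a peak was the steadiest, from 6 to 8 under all settings tried, which include the gene body alone, 5000 bp upstream, the nearest start alone and, added after seeing the data, leaving out each replicate (6 to 7). The 30 optimal summits became 13 with peaks above the list's median alone. The 17 summits found in all 3 replicates became 8 when intervals had to overlap by 50% of both and 30 with the full relaxed lists, and 19 to 22 were found in both others when 1 replicate was left out. The 2 promoter summits became 1 with 250 bp on each side of a start and 6 with 1000 bp. The mean of 28.7 strongest summits per replicate became 44.7 with all peaks at a −log10 q-value of at least 2 (61, 27 and 46, from lists of 11218, 6134 and 8413 peaks), and ran from 27.5 to 30.0 without 1 replicate. The median relative signal of 2.38 became 8.70 when divided by the median of the whole relaxed list, which is weaker by construction, and ran from 2.22 to 2.60 without 1 replicate. The order of the genes by strongest peak was the same under every scaling. Without replicate 2, Dad came before Mad and put before tkv. Read depth is unknown, so weak peaks cannot be told from missed ones. No comparison between groups, paired or not, was possible because all replicates belong to 1 group. Peaks of the same replicate were compared by their order alone, without a test.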

Other observations

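Beyond the windows, 30 further optimal summits lay within 20000 bp of the windows of the 10 genes, and 11 of them were around brk, including the summit 16 bp outside its window. From 15920 bp upstream of the brk start to 17069 bp after it they ran on both sides of the gene, 10 of them in introns, with the strongest, at a relative signal of 3.30, lying 794 bp after a start of Dok. Of these 11, 9 were found in all 3 replicates. Past the end of shn a peak with a relative signal of 4.22, stronger than any within shn, stood at the promoter of CG7737, 5327 bp beyond the window. Past Dad, a peak of 3.02 lay in an intron 549 bp after a start of kuk.

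At tkv the strongest summits of replicate 3 numbered 6, of which 4 had no optimal summit within 200 bp, and of those of replicate 2 there were 3, of which 2 had none. Replicates 2 and 3 both had a summit in an intron about 15 kb from the first tkv start (15218 and 15184 bp, ranks 5529 and 5450) that is not in the optimal list. The tkv summits of replicates 2 and 3 with no optimal summit within 200 bp ranked from 5190 to 5529, toward the end of the 5809 strongest.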
